A study of Schizosaccharomyces pombe with 10 samples.

Results

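The strain labelled 10D carries, by its labels, a deletion of sty1 and an HA-tagged Atf1 with phosphomimicking changes (HA-Atf1.10D), and it was compared here after and before exposure to H2O2. Exponential cultures of the fission yeast Schizosaccharomyces pombe in minimal medium were left untreated or given 1 mM H2O2 for 15 min, and polyA RNA was sequenced. The comparison rests on 2 of the 10 libraries of the study, chosen by the names of their count columns, with 1 library a side. The other 8 libraries served as comparators: WT (wild type), STY (sty1 deletion with its own Atf1), HA (sty1 deletion with HA-tagged wild-type Atf1) and 10M (sty1 deletion with HA-tagged unphosphorylatable Atf1), each untreated and treated in the same way. By the labels STY, HA, 10D and 10M therefore share the loss of sty1. The labels do not name the promoter of the tagged Atf1, its place in the genome, or whether a strain is 1 clone.

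Sty1 is the stress-activated MAP kinase of fission yeast, and Atf1 is a bZIP transcription factor that works with the partner Pcr1 and is phosphorylated by Sty1 under stress. Pap1, an AP-1-like factor, enters the nucleus once H2O2 has oxidised it, through the peroxiredoxin Tpx1, and turns on genes for peroxide removal, thiol reduction and drug export. Iron uptake is held down by the GATA repressor Fep1 when iron is plentiful, while Php4 represses genes of iron-using proteins when iron is scarce. Hsf1 drives the genes of cytosolic chaperones.

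The transcript of the deleted gene was checked first. Counts on sty1 (SPAC24B11.06c) were 105 and 129.9 CPM (CPM, read counts scaled to a common library size with TMM factors) in the untreated and treated 10D libraries. The STY libraries had 8.92 and 9.11 CPM and the WT libraries 267 and 305 CPM, so both 10D libraries lay between STY and WT. This goes against the genotype label, and the HA and 10M libraries stood at a similar level to 10D, between 101 and 125 CPM. The libraries are therefore called by their labels throughout, and whether a deleted allele can give these reads was not tested. The gene atf1 (SPBC29B5.01) had 524 and 744 CPM in the 10D libraries, and the other tagged strains HA and 10M had 556 and 660.1 CPM and 358 and 398 CPM. The WT libraries had 143 and 643 CPM of it, and the STY libraries 69.3 and 30.4 CPM. The marker-like gene leu1, of leucine synthesis, had 3841 and 2902 CPM in 10D. It was also high in HA and 10M, at 2767 to 5573 CPM, while the WT and STY libraries ran from 539.5 to 1057 CPM. The untreated 10D library held 17111861 counts and the treated one 26503471, the other 8 ran from 9178795 to 17780370, and no label names a batch.

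Of 7017 genes, 4983 had a mean of at least 10 CPM over the 10 libraries. For each, the log2 ratio of treated over untreated CPM (prior count 2) was taken with a 95% Clopper-Pearson interval, and a gene was called apart when the ratio was at least 2-fold and the interval excluded 1. With 1 library a side there is no replicate spread and no p-value for this comparison: intervals cover counting error only, and PCR copies of a molecule make them too narrow. In the 10D libraries 727 genes (14.6%) were apart, 367 (7.37%) higher and 360 (7.22%) lower after H2O2. At 4-fold or more 95 were higher and 96 lower, at 8-fold 44 and 32, and at 16-fold 21 and 11. The median of all 4983 genes was -0.07, and 85.4% stayed within 2-fold. The median width of a counting interval was 0.21 on the log2 scale, and 1 further gene reached 2-fold with an interval that included 1. As CPM is a share of a library, fewer cells of a kind and less RNA per cell cannot be told apart.

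**Figure D1:**
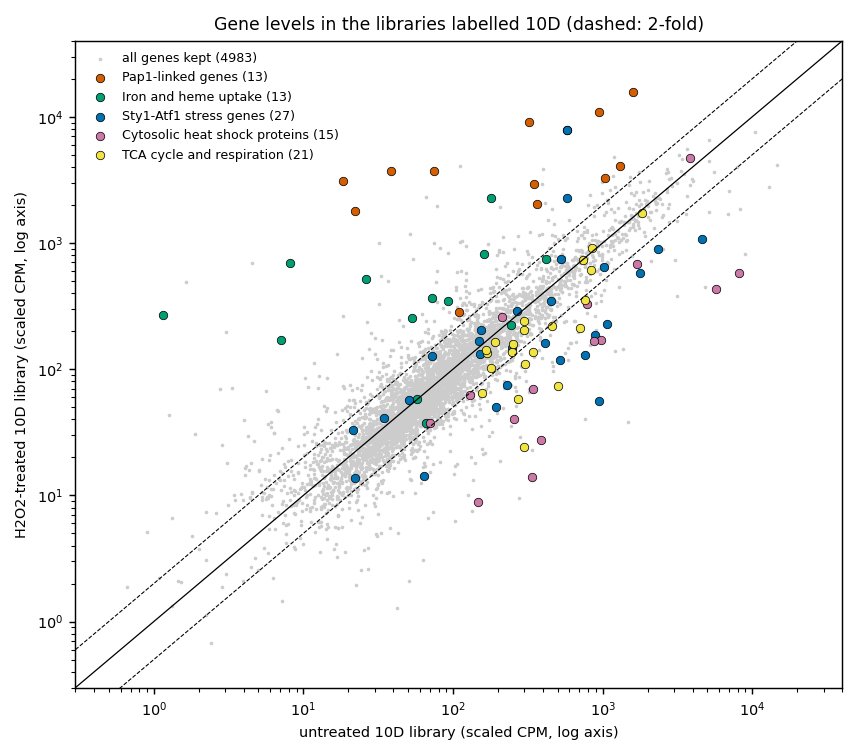
Scaled CPM of each of 4983 genes in the untreated (x) and treated (y) 10D libraries, both on log axes, with members of 5 lists coloured. The solid line marks equal levels and the dashed lines a 2-fold difference; all 13 Pap1-linked genes lie above the upper dashed line, and 12 of 15 cytosolic heat shock genes lie below the lower one.

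Whether the 10D response differs from that of the other strains labelled as sty1 deletion was tested with edgeR's quasi-likelihood fit of WT, 10D and a pool of STY, HA and 10M, each untreated and treated. The 3 pooled strains supplied the error, and the fit takes the single 10D and WT libraries to vary like those strains. Of 6176 genes, 301 (4.87%) passed an adjusted p of 0.05, 182 (2.95%) with a higher response in 10D and 119 (1.93%) with a lower one, and 1544 had an unadjusted p under 0.05. The calls depended on the pool: 3 genes passed without STY, 0 without HA (858 at an unadjusted p under 0.05) and 485 without 10M, and 853 passed with strain as a block, all 301 among them. Of the 853, 470 (7.61%) had a higher and 383 (6.2%) a lower response in 10D, and the block takes up what the libraries of a strain share. A further contrast, of the 10D with the WT response, called 5 genes (0.081%), all with a lower response in 10D and named below, and 345 had an unadjusted p under 0.05. With the strain block it called 107. The comparisons with the pool and with WT share the 10D libraries. A difference of responses below is the log2 ratio of 10D minus that of the pool, with its SE and the adjusted p of the edgeR fit.

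Genes linked to Pap1 had the highest median ratio of the lists examined. All 13 were at least 2-fold higher in the treated 10D library, against 7.37% of all genes, with a median log2 ratio of 3.53. The medians of the same genes were 4.46 in WT, 0.47 in STY, 0.53 in HA and 1.16 in 10M. Together they took 0.654% of the counts of the untreated 10D library and 6.43% of the treated one. In the test 7 of 13 had a higher response than the pool, against 2.95% of all genes. With strain as a block there were 12, against 7.61% of all genes.

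The sulfiredoxin gene srx1 (SPBC106.02c), whose product repairs over-oxidised peroxiredoxin, had 38.8 and 3722 CPM (log2 ratio 6.58, 95% interval 6.47 to 6.70). The gene was also higher after H2O2 in STY (23.4 and 34.5 CPM), HA (22.4 and 82.8 CPM) and 10M (15.2 and 127 CPM). Treated WT reached 4044 CPM. The difference of responses was 4.57 ± 0.93 (SE), edgeR adjusted p 0.0439. Treated 10D thus lay beside treated WT and far above the other strains.

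The thioredoxin reductase gene trr1 (SPBC3F6.03) had 319.7 and 9035 CPM (log2 ratio 4.82, 95% interval 4.78 to 4.86), with a difference from the pool of 3.93 ± 0.55 (SE), edgeR adjusted p 0.0185. The peroxiredoxin gene tpx1 (SPCC576.03c) had 948 and 10923 CPM (log2 ratio 3.53, 95% interval 3.50 to 3.55), a difference of 2.97 ± 0.48 (SE), edgeR adjusted p 0.0233. Thioredoxin, encoded by trx1, had 1308 and 4046 CPM. All treated levels of these genes in STY, HA and 10M were below the treated 10D level. In these strains trr1 had 516 and 648, 469 and 680, and 346 and 1122 CPM.

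The catalase gene ctt1 (SPCC757.07c), a target of both Atf1 and Pap1, began higher than in any other untreated library, at 576 CPM against 10.5 to 124 CPM. It stood at 7903 CPM after H2O2 (log2 ratio 3.78, 95% interval 3.75 to 3.81), below the 15866 CPM of treated WT. Its difference from the pool was 1.11 ± 1.67 (SE) and did not pass, edgeR adjusted p 0.719. After H2O2 ctt1 was also higher in STY (10.5 and 24.97 CPM), HA (13.9 and 73.9 CPM) and 10M (35.2 and 279.8 CPM).

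Export and oxidoreductase genes of the list followed, each with treated 10D above treated STY, HA and 10M. The transporter gene caf5 (SPBC609.04), of a plasma membrane spermine-family exporter, had 74.5 and 3738 CPM (log2 ratio 5.65, 95% interval 5.57 to 5.73), against 83.8 to 106 CPM in treated STY, HA and 10M. The ABC transporter genes bfr1 and pmd1 had 365 and 2045 CPM and 109 and 282 CPM. The largest ratio of the list was that of SPCC663.08c, at 18.4 and 3079 CPM (log2 ratio 7.37, 95% interval 7.22 to 7.55), and osr1, in the same run of 3 adjacent genes on chromosome III, had 22.1 and 1784 CPM. The glutathione transferase gene gst2 and obr1 had 345 and 2938 CPM and 1598 and 15655 CPM. The gene zwf1, of the NADPH-yielding first step of the pentose phosphate pathway, had 1037 and 3285 CPM and a difference of 1.70 ± 0.25 (SE), edgeR adjusted p 0.0194.

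**Figure D2:**
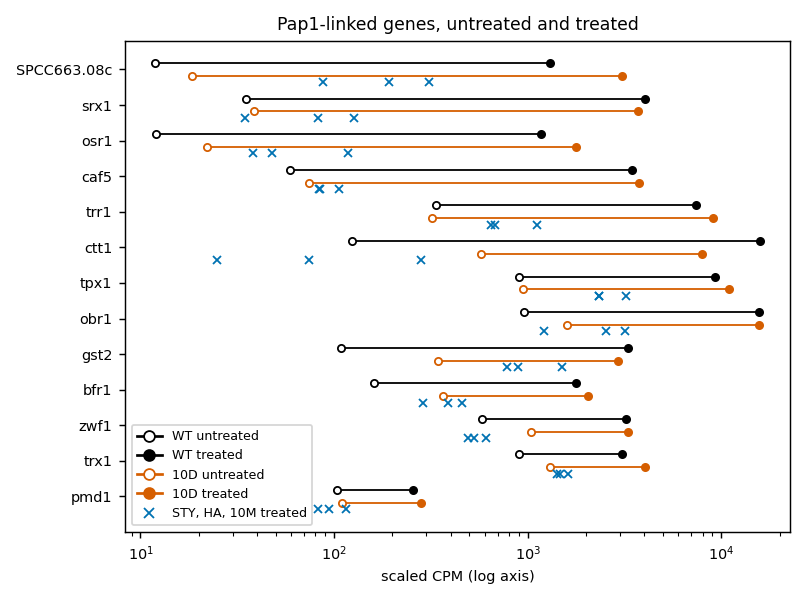
Scaled CPM (log axis) of the 13 Pap1-linked genes in WT and 10D libraries, open circles untreated and filled circles treated, with crosses for treated STY, HA and 10M. Treated 10D lies within 2-fold of treated WT for 11 genes and above all crosses for 13. The matching shares of all genes were not computed.

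Antioxidant genes at large were divided. Among 10 genes for peroxide and superoxide enzymes 4 were higher and 2 lower, against 7.37% and 7.22% of all genes. The 4 were ctt1 and tpx1 of the Pap1-linked list with sod1 and mxr1. The Cu,Zn superoxide dismutase gene sod1 had 1517 and 3355 CPM, and mxr1, of methionine sulfoxide repair, 50.6 and 119.9 CPM. The peroxiredoxin-family gene pmp20 went the other way, at 1218 and 139 CPM (log2 ratio -3.13, 95% interval -3.18 to -3.08), and the cytochrome c peroxidase gene ccp1 had 196 and 97.3 CPM. The glutathione peroxidase gene gpx1, an Atf1 target, had 1027 and 641 CPM in 10D against 326 and 2431 CPM in WT. Of 11 glutathione genes 3 were higher and 1 lower, against the same shares of all genes. Those higher were gst2, pgr1 (glutathione reductase, 329 and 1214 CPM) and gcs1 (first step of glutathione synthesis, 287 and 685 CPM). The glutaredoxin gene grx1 was lower, at 1044 and 227 CPM. The gene pap1 itself had 233 and 496 CPM (log2 ratio 1.09, 95% interval 1.04 to 1.15).

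Several of the highest ratios belonged to genes outside these lists. The riboflavin synthesis gene rib4 had 111 and 4043 CPM (difference 4.08 ± 0.40 (SE), edgeR adjusted p 0.00813). The protein kinase gene ppk8 had 32.1 and 999 CPM, and ecl1, which extends chronological lifespan when overexpressed, 77.6 and 1957 CPM. The nitric oxide dioxygenase gene yhb1 had 51.9 and 1175 CPM, and mfs2, of a membrane transporter, 36.5 and 502 CPM. The gene SPAC750.01 had the highest difference of responses among protein-coding genes. It stood at 1.63 and 489 CPM in 10D, 0.471 and 7.05 CPM in WT and 35.6 to 83.6 CPM in the 6 other libraries, so the untreated 10D and WT libraries were the low ones. Its difference from the pool was 7.54 ± 0.66 (SE), edgeR adjusted p 0.00667.

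Iron and heme uptake genes formed the second group that was higher after H2O2. Of 13 genes 9 were apart and all 9 were higher, against 7.37% of all genes, with a median log2 ratio of 2.32 over the 13, against 1.43 in WT and -0.33, -0.12 and 0.07 in STY, HA and 10M. In the test 6 of 13 had a higher response than the pool, against 2.95% of all genes. The minimum level counts the treated libraries in its mean and so favours genes that are high there. In the untreated libraries shu1 had 0.210 to 4.42 CPM and frp2 6.27 to 13.1 CPM. The calls of these genes are therefore not independent of the minimum. The share of counts on the listed genes was 0.134% before and 0.636% after. No label gives the iron content of the medium.

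The cell-surface heme receptor gene shu1 (SPAC1F8.02c) had 1.15 and 266 CPM (log2 ratio 7.69, 95% interval 7.21 to 8.59), a difference of 7.24 ± 0.75 (SE), edgeR adjusted p 0.0104. Treated WT had 601 CPM, and STY, HA and 10M had at most 1.01 CPM in any library. The transporter gene str3 (SPAC1F8.03c), of the siderophore transporter family, lies beside it and had 8.15 and 696 CPM (log2 ratio 6.39, 95% interval 6.17 to 6.67), against 79.6 and 330 CPM in WT. Its untreated 10D level was the lowest of the 5 untreated libraries. Its difference from the pool was 6.84 ± 0.87 (SE), edgeR adjusted p 0.0151.

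Genes of reductive iron uptake were also higher. The ferric reductase genes frp1 and frp2 had 26.0 and 519 CPM and 7.07 and 171 CPM. The iron permease gene fip1 (SPAC1F7.07c) had 179.9 and 2259 CPM (log2 ratio 3.65, 95% interval 3.60 to 3.70), and its ferroxidase partner fio1 72.4 and 363 CPM (log2 ratio 2.32, 95% interval 2.24 to 2.41). In WT these were 577 and 951 CPM and 229 and 179 CPM, and in STY, HA and 10M both genes were lower after H2O2 than before. The differences from the pool were 4.25 ± 0.63 (SE) and 3.14 ± 0.57 (SE), edgeR adjusted p 0.0194 and 0.0302. Treated 10D had more than 2-fold the level of treated WT for 4 genes of this list, fip1, fio1, frp1 and str3. The matching share of all genes was not computed. The str3 response differed from that of WT by 4.36 ± 0.95 (SE), which passed only with strain as a block. The contrast of the fip1 and frp1 responses with WT did not pass, edgeR adjusted p 0.445 and 0.912, and with strain as a block they were 0.00556 and 0.054.

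The siderophore synthesis genes sib1 and sib2 had 53.4 and 256 CPM and 161 and 819.7 CPM, and in WT they had 48.1 and 188 CPM and 90.3 and 611 CPM. The iron-responsive repressor gene php4 had 93.0 and 347 CPM. The repressor gene fep1 was not apart, at 65.8 and 37.3 CPM, nor were the siderophore transporter gene str1 (420 and 745 CPM), str2 or pcl1.

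Genes of the TCA cycle and respiration, many of whose proteins hold iron-sulfur clusters or heme, had the opposite sign. Of 21 genes 9 were lower in the treated 10D library, against 7.22% of all genes, and 0 were higher, with a median of -0.80 against -0.43 in WT. In the test 9 of 21 had a lower response than the pool, against 1.93% of all genes. The gene sdh2 (SPAC140.01), of the iron-sulfur subunit of succinate dehydrogenase, had 299 and 24.0 CPM (log2 ratio -3.63, 95% interval -3.77 to -3.52), against 323 and 91.0 CPM in WT. Its treated level in STY, HA and 10M was 281, 293 and 338 CPM, and the difference of responses was -3.57 ± 0.26 (SE), edgeR adjusted p 0.00667. The cytochrome c gene cyc1 had 503 and 73.6 CPM, with a difference of -2.55 ± 0.39 (SE), edgeR adjusted p 0.0197.

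The other subunit genes sdh3 and sdh1 had 271 and 58.4 CPM and 706 and 211 CPM, and the Rieske iron-sulfur protein gene rip1 345 and 136 CPM. The aconitase gene aco1, also of an iron-sulfur enzyme, was not apart at 841 and 614 CPM. Neither were the ATP synthase genes atp1 and atp2, with log2 ratios of 0.10 and -0.10.

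**Figure D3:**
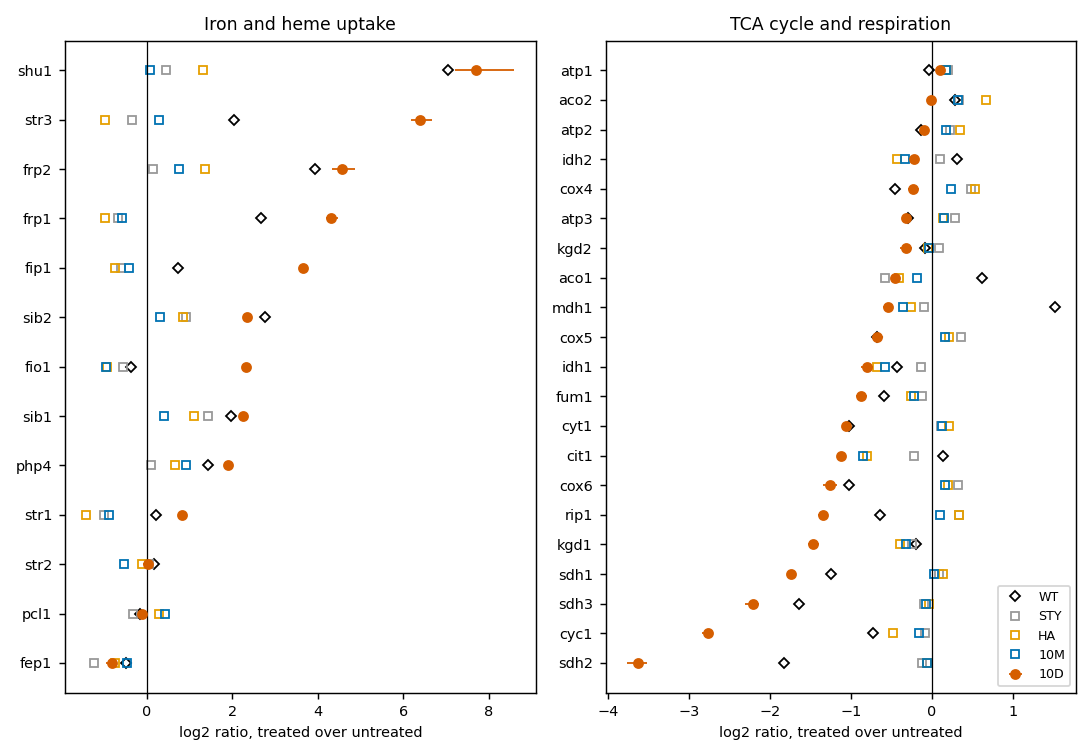
Log2 ratio of treated over untreated CPM for 13 iron and heme uptake genes (left) and 21 TCA cycle and respiration genes (right), 1 symbol per strain; the bar on each 10D point is its 95% counting interval. The 10D points of shu1, str3, frp2, frp1, fip1 and fio1 lie to the right of every STY, HA and 10M point, and those of sdh2, cyc1, sdh3 and sdh1 to the left of every other strain.

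Stress genes known as targets of Sty1 and Atf1 were already high in the untreated 10D library, and 12 of 27 were lower after H2O2, against 7.22% of all genes. Of 28 genes 27 passed the minimum level, and the untreated 10D library was the highest of the 5 untreated libraries for 18 of them, against 33.1% of all genes. After H2O2 only 2 of the 27, ctt1 and plr1, were at least 2-fold higher. The median log2 ratio was -0.68, against 2.42 in WT. Their share of counts was 1.76% before and 1.57% after in 10D, and 0.744% and 5.46% in WT. Treated 10D was above all of treated STY, HA and 10M for 21 genes, and more than 2-fold below treated WT for 19. The matching shares of all genes were not computed, so these counts have no background beside them.

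The gene ddr48 (SPAC23H3.15c), a DNA-damage-responsive stress gene, had 940.1 and 55.9 CPM in 10D (log2 ratio -4.07, 95% interval -4.15 to -3.99), against 53.5 and 3371 CPM in WT. In STY, HA and 10M it lay between 5.10 and 18.5 CPM in all 6 libraries. The untreated library was therefore the higher one in 10D, and the treated library the higher one in WT. The difference from the WT response was -10.05 ± 1.40 (SE), edgeR adjusted p 0.0756, and that from the pool -3.94 ± 1.04 (SE), edgeR adjusted p 0.0795, neither past the threshold. With strain as a block both passed, edgeR adjusted p 0.000303 and 0.00119.

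The same order held for lsd90, at 757 and 129 CPM in 10D, against 97.6 and 3646 CPM in WT. The stress protein gene hsp9 had 4639.6 and 1069 CPM in 10D, 1712 and 9163 CPM in WT and 2.31 to 53.3 CPM in the 6 libraries of STY, HA and 10M. The glycerol synthesis gene gpd1 had 2342 and 888 CPM in 10D, against 1151 and 5640.5 CPM in WT. The trehalose synthesis gene tps1 had 890.5 and 186 CPM in 10D, against 457 and 1148 CPM in WT. It was 1 of 2 members whose response was called different from the pool, by -2.83 ± 0.60 (SE), edgeR adjusted p 0.0473, with 1.93% of all genes called lower. With strain as a block 12 members had a lower and 3 a higher response, against 6.2% and 7.61% of all genes. Of those lower, hsp9, lsd90, gpd1 and srk1 had edgeR adjusted p of 0.00812, 0.0146, 0.022 and 0.00803 with the block, after 0.598, 0.219, 0.249 and 0.296 without it.

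The other was hsp3101, of the DJ-1 family, with 517 and 118 CPM in 10D (log2 ratio -2.13, 95% interval -2.19 to -2.07), against 30.2 and 168 CPM in WT. Its differences were -1.85 ± 0.37 (SE) from the pool and -4.61 ± 0.47 (SE) from WT, edgeR adjusted p 0.0426 and 0.0323. In the fit without the block it was the one list member among the 5 genes called against WT. The others were prl65, SPAC32A11.02c, SPBC12C2.04 and SPAC11D3.01c. The last had 1371 and 144 CPM in 10D (log2 ratio -3.25, 95% interval -3.30 to -3.20) against 24.3 and 93.6 CPM in WT. In all 5 untreated 10D was above every other library of the study and the treated 10D library was lower, while treated WT was higher than untreated WT. Without the block lsd90, hsp9, gpd1 and srk1 did not pass against WT, with differences of -7.78, -4.54, -3.70 and -4.41. With strain as a block lsd90, hsp9, gpd1 and srk1 passed. The genes ctt1 and pcr1, at -3.22 and -1.78 without the block, passed in neither fit.

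The regulator genes pyp2, pcr1 and atf1 were not apart, nor was cta3. The phosphatase gene pyp2, which switches Sty1 off, had 22.3 and 13.8 CPM in 10D, against 16.5 and 321 CPM in WT. The calcium pump gene cta3 had 50.6 and 56.5 CPM and 14.4 and 303 CPM, with a difference from the pool of 1.85 ± 0.98 (SE), edgeR adjusted p 0.287, and 0.00812 with strain as a block. The gene pcr1, of the partner of Atf1, had 72.4 and 128 CPM and 77.8 and 472 CPM. The kinase gene srk1, whose product Sty1 activates, was lower, at 231 and 74.96 CPM in 10D against 74.0 and 507 CPM in WT. Of 17 genes of the Sty1 cascade srk1 was lower and the sensor kinase gene mak1 higher (132 and 328 CPM), shares no larger than those of all genes.

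Cytosolic heat shock genes were the list with the lowest median. Of 15 genes 12 were lower in treated 10D, against 7.22% of all genes, and 0 higher, with a median of -2.39. The medians were -1.14 in WT, 0.40 in STY, 0.95 in HA and 0.78 in 10M. Their share of counts was 2.32% before and 0.710% after. In the test 11 of 15 had a lower response than the pool, against 1.93% of all genes.

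The small heat shock protein gene hsp16 (SPBC3E7.02c) had 146 and 8.91 CPM in 10D (log2 ratio -4.02, 95% interval -4.24 to -3.84), against 84.1 and 1200 CPM in HA and 121 and 69.9 CPM in WT. The Hsp70 gene ssa1 (SPAC13G7.02c) had 336 and 14.0 CPM (log2 ratio -4.57, 95% interval -4.75 to -4.43) and the disaggregase gene hsp104 (SPBC16D10.08c) 385 and 27.3 CPM (log2 ratio -3.81, 95% interval -3.93 to -3.70). For these 3 genes treated 10D was the lowest of all 10 libraries, while in STY, HA and 10M the treated library was above the untreated one. The differences of responses were -6.89 ± 0.89 (SE), -5.89 ± 1.01 (SE) and -5.29 ± 0.74 (SE), edgeR adjusted p 0.0157, 0.0271 and 0.0185.

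For the abundant members treated 10D lay close to treated WT. The Hsp90 gene hsp90 had 5728 and 431 CPM in 10D, against 4825 and 263 CPM in WT, and ssa2, of Hsp70, 8161 and 574 CPM and 7825 and 477 CPM. The cyclophilin gene wis2, of an Hsp90 co-chaperone that was not in the list, had 764 and 40.5 CPM in 10D, against 625 and 32.4 CPM in WT, and a difference from the pool of -5.21 ± 0.44 (SE), edgeR adjusted p 0.00667. The Hsp70 gene sks2, whose product binds ribosomes, was not apart at 3831 and 4690.4 CPM, nor was hsf1 (212 and 257 CPM). Among 10 chaperones of mitochondria and the ER, hsp10 (681 and 197 CPM) and hsp78 (262 and 92.5 CPM) were lower and 0 were higher. The share of all genes that were lower was 7.22%.

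**Figure D4:**
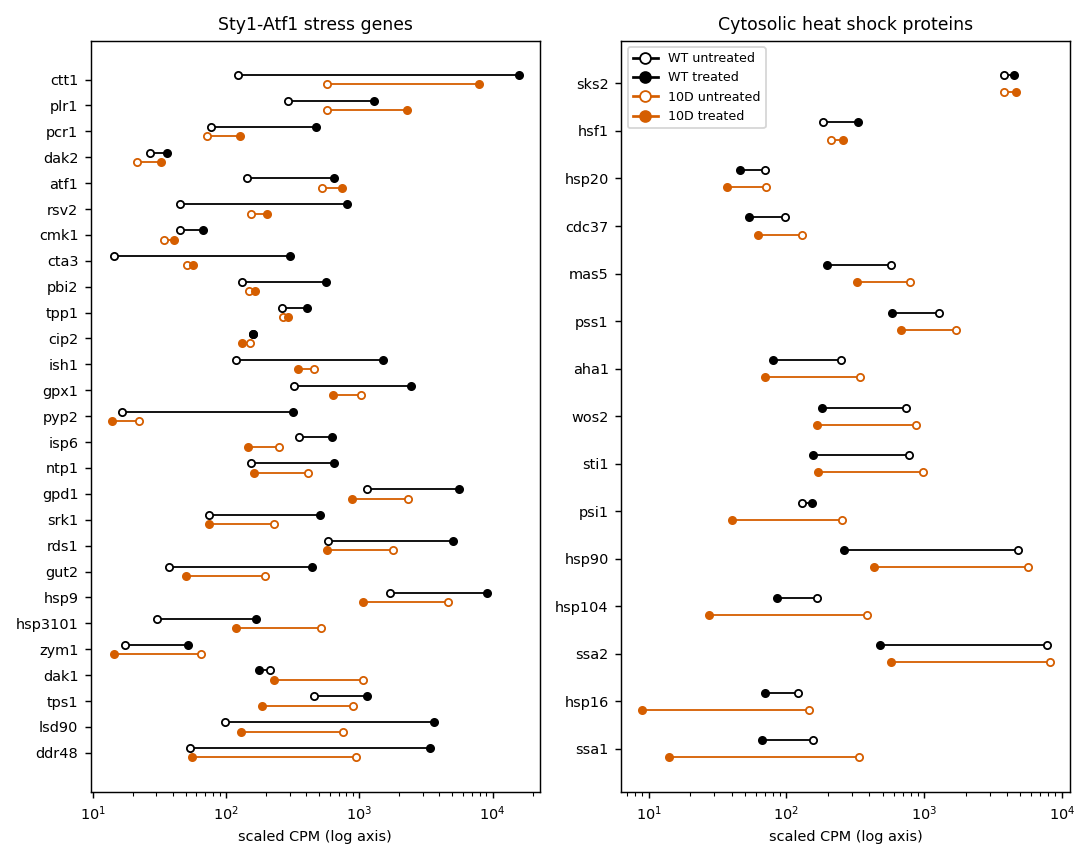
Scaled CPM (log axis) in WT (black) and 10D (orange) libraries, open circles untreated and filled circles treated, for 27 Sty1-Atf1 stress genes (left) and 15 cytosolic heat shock genes (right). On the left ddr48, lsd90, hsp9, rds1 and gpd1 are higher after H2O2 in WT and lower after it in 10D; on the right hsp16, ssa1 and hsp104 end lower in 10D than in WT.

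Genes of carbon metabolism were largely lower. Of 17 glycolysis and fermentation genes 11 were lower, against 7.22% of all genes, and 0 higher. In the test 7 of 18 had a lower response than the pool, against 1.93% of all genes, and with strain as a block 12 had a lower and 1 a higher one, against 6.2% and 7.61%. Their share of counts was 6.03% before and 2.09% after. The phosphoglycerate kinase gene pgk1 (SPBC14F5.04c) had 8953 and 823 CPM in 10D (log2 ratio -3.44, 95% interval -3.47 to -3.42), against 7441 and 468 CPM in WT, with a difference from the pool of -3.34 ± 0.49 (SE), edgeR adjusted p 0.0194. The dehydrogenase gene tdh1 had 8289 and 1858 CPM and the alcohol dehydrogenase gene adh1 6988 and 2562 CPM. Of 10 trehalose and glycerol genes 6 were lower, against the same 7.22%, 5 of them also in the stress list.

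Of 4 hexose transporter genes ght5 and ght4 were lower, against 7.22% of all genes, at 949 and 178 CPM and 133 and 20.2 CPM. The gene ght8 was not apart, at 754 and 1103 CPM. Of 6 pentose phosphate genes zwf1 and tal1 (1065 and 2195 CPM) were higher, against 7.37% of all genes. Of 34 amino acid synthesis genes 10 were higher, against 7.37% of all genes, and 1 lower, against 7.22%. Their median log2 ratio was 0.58 in 10D, 0.57 in WT, 0.36 in STY, 0.32 in HA and 0.24 in 10M. Lysine and arginine genes were among those higher, lys4 (homocitrate synthase) at 1182 and 4805 CPM and arg4 at 987 and 2479.6 CPM. Both had a higher response than the pool by 1.70 ± 0.28 (SE) and 1.38 ± 0.23 (SE), edgeR adjusted p 0.0259 and 0.0253. They were the only 2 of 34 called higher in the test, against 2.95% of all genes. A lower response was called for 1, against 1.93%. Of 13 sulfate and methionine genes sua1 (ATP sulfurylase) and sir1 were lower, against 7.22% of all genes. They had 1283 and 450.4 CPM and 900.1 and 204 CPM. The sulfate transporter gene sul2 had 339 and 22.9 CPM. Of 11 phosphate and thiamine genes 2 were lower and 1 higher, against 7.22% and 7.37% of all genes. The thiamine-repressed genes nmt1 and thi2 were lower, at 14722 and 4145 CPM and 12879 and 2769.8 CPM. In WT they had 13422 and 2776 CPM and 11238 and 3633 CPM. The gene thi9 was higher, at 373 and 1154 CPM in 10D.

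Mating genes were lower in 12 of 20, against 7.22% of all genes, with 0 higher and a median of -1.28 against -1.43 in WT. The M-factor pheromone genes mfm1 and mfm2 had 42.4 and 1.28 CPM and 281 and 28.9 CPM, and mei2, of an RNA-binding protein needed for meiosis, 134 and 7.46 CPM. The master regulator gene ste11 had 151 and 59.3 CPM. The level before H2O2 differed widely among the strains: mei2 was at 4.09 and 9.14 CPM in untreated STY and HA, 55.9 in WT and 73.7 in 10M. In the test 0 of 25 passed in edgeR, against 4.87% of all genes. At an unadjusted p under 0.05 there were 2, against 1544 of all 6176 genes, and DESeq2 called 1, against 744 of them. With strain as a block 7 had a lower response, against 6.2% of all genes.

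Of 17 cell separation genes 9 were lower, against 7.22% of all genes, and psu1, of a cell wall protein, was higher at 1208 and 2793 CPM, while in STY, HA and 10M psu1 was at 136, 276 and 493 CPM after H2O2. The cell separation gene adg2 had 463 and 97.3 CPM. In this list 0 of 17 genes passed the edgeR test of the difference of responses, against 4.87% of all genes. At an unadjusted p under 0.05 there were 4, against 1544 of all 6176 genes, and DESeq2 called 4, against 744 of them. With strain as a block 2 had a higher and 1 a lower response, against 7.61% and 6.2% of all genes. Of 18 mitosis regulators 3 were lower, against 7.22% of all genes. Among them were the phosphatase gene cdc25 and the activator gene slp1 of the anaphase-promoting complex. Of 18 G1-S genes rep2 and mik1 were lower, against the same 7.22%. The stage of the cultures in the cell cycle was not tested.

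Most genes of protein synthesis and turnover stayed within 2-fold. Of 129 ribosomal protein genes 1, rps2202 (318 and 817 CPM), was apart, against 14.6% of all genes. The share of counts on the 129 was 15.8% and 15.7%. Of 26 ribosome biogenesis genes gar2 (nucleolin), sof1 and rlp7 were higher, against 7.37% of all genes. Of 10 housekeeping genes the TATA-binding protein gene tbp1 was higher, against the same 7.37%. Of 19 genes of the proteasome's regulatory particle rpn1302 was lower, against 7.22% of all genes. Of 28 autophagy genes atg3 and atg2402 were higher, a share near the 7.37% of all genes. Of 10 histone genes 0 were apart, against 14.6% of all genes. The act1 gene had 4027 and 3116 CPM. Of 13 copies of the retrotransposon Tf2, 2 passed the minimum level, Tf2-7 at 3.99 and 39.3 CPM and Tf2-11 at 4.29 and 29.4 CPM, and treated WT was higher still at 118 and 72.9 CPM. With the minimum set on the 4 untreated libraries of the other strains 0 passed, so the count of copies kept carries no information on direction, and reads shared between such near-identical copies may have been divided among them.

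**Figure D5:**
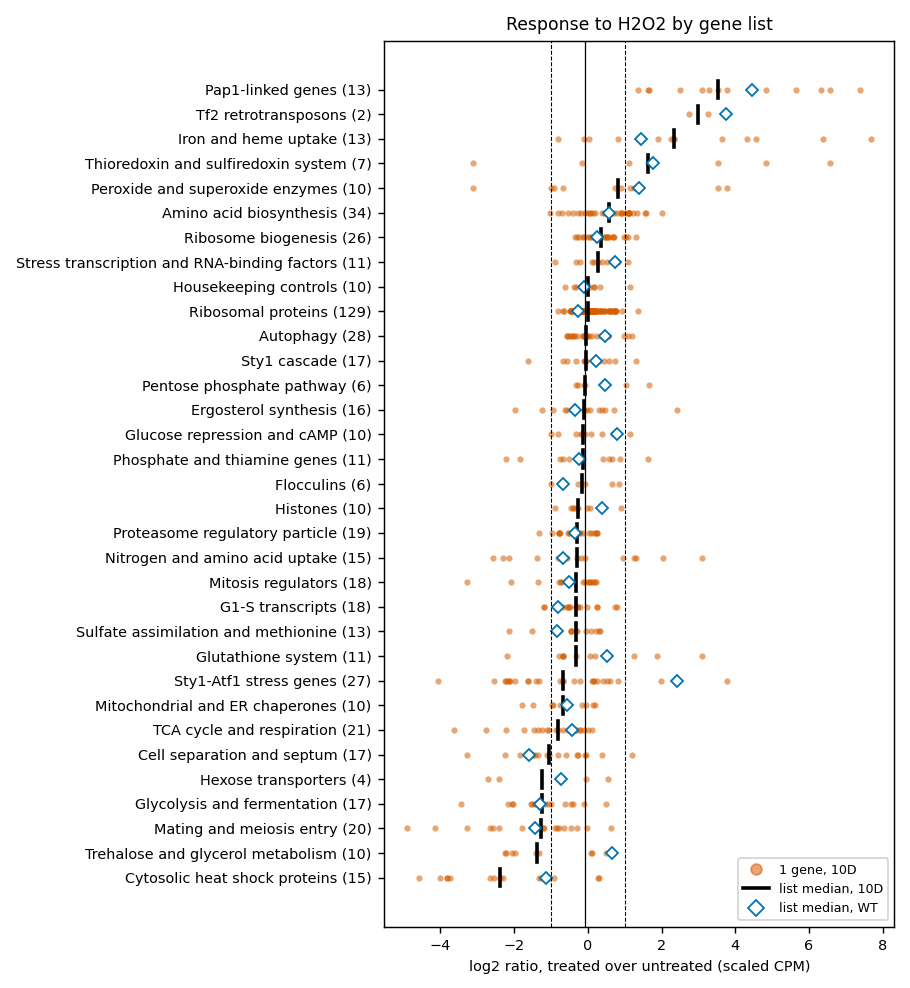
Log2 ratio of treated over untreated CPM in the 10D libraries for each gene (points) of 33 lists, with the number of genes in brackets; black bars are list medians in 10D and open diamonds list medians in WT. The solid line is the median of all 4983 genes and the dashed lines mark 2-fold. The 10D median of the Sty1-Atf1 stress genes is -0.68 and that of WT is 2.42, the widest gap between bar and diamond.

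A larger share of noncoding than of coding genes was higher. Of 286 noncoding genes 78 (27.3%) were higher and 25 (8.74%) lower, while of 4697 others 289 (6.15%) were higher and 335 (7.13%) lower. All noncoding genes together took 0.879% of the counts of untreated and 1.16% of treated 10D. Their share was also larger after H2O2 in WT (1.02% and 1.33%), STY (0.988% and 1.13%), HA (0.936% and 1.56%) and 10M (0.904% and 1.42%). The minimum level counts treated 10D in its mean and so favours genes that are high there. With the minimum set on the 4 untreated libraries of the other strains, chosen after seeing the data, 45 of 216 noncoding genes (20.8%) and 268 of 4660 others (5.75%) were higher. As the strand setting of the counts is not given in the sources used here, reads of a noncoding gene and of a coding gene overlapping it cannot be told apart. In the reference annotation 56 of the 78 overlap a coding gene, and for 10 of the 78 that coding gene was also higher. An overlap was also found for 13 of the 25 lower noncoding genes and 150 of the 183 not apart. The gene SPNCRNA.1258, at 2.78 and 69.3 CPM, overlaps tpx1, and SPNCRNA.1179, at 1.27 and 43.4 CPM, overlaps atd3. The gene SPNCRNA.1287 overlaps none, had 3.32 and 70.9 CPM, and its response was higher than that of the pool by 3.04 ± 0.47 (SE), edgeR adjusted p 0.0197. Among those with a lower response than the pool, SPNCRNA.911 had 3.20 and 0.120 CPM in 10D, against 0.744 and 20.6 CPM in HA. Its difference was -8.17 ± 1.36 (SE), edgeR adjusted p 0.0253. It did not pass the minimum level and had 3 counts in treated 10D, the floor of that library, so the size of this difference is uncertain.

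Genes that were higher lay side by side in the gene order of the reference more often than genes at large. Of the 367, 28.6% had a neighbour that was also higher, compared with 13.8% of all genes, and of the lower genes with a place in the reference 24.6% had a lower neighbour, compared with 13.5% of all genes. Pairs of neighbours were both higher in 2.08% of divergent, 0.91% of tandem and 0.696% of convergent pairs. The longest run of adjacent genes that were higher had 6, among them shu1, str3 and hhy1 (3.02 and 196 CPM) with 2 noncoding genes and 1 unnamed gene, and a run of 4 held tpx1. Runs include overlapping genes, whose reads cannot be told apart; among neighbours that do not overlap, 1.29% were both higher, against 1.19% of all pairs.

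Of the 360 genes lower in treated 10D, untreated 10D was the highest of the 5 untreated libraries for 48.1%, compared with 33.1% of all genes. Of the 367 higher, untreated 10D was the lowest of the 5 for 38.1%, compared with 22.9% of all genes. The untreated 10D library enters both measures, so these shares are not independent of the ratios, and with 1 library neither was tested.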

How the data were processed

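PolyA RNA of 10 cultures (5 strains, untreated or treated, 1 library each) was sequenced by the authors. The deposited table holds raw read counts per gene; FastQC, TopHat2 2.1.1 and HTSeq are named per the submitters' processing notes, and the genome build, annotation, strand setting and filters are not given in the sources used here. Columns were joined to samples by the names in the sample descriptions. Of 7017 genes, 6843 matched the ASM294v3 reference by identifier, which supplied symbols, overlaps and neighbour order only. Counts were scaled with edgeR 4.0.16 TMM factors (R 4.3.3) over all 10 libraries, and log2 ratios of CPM used a prior count of 2 and a minimum mean of 10 CPM, with Clopper-Pearson 95% intervals. Differences of responses came from glmQLFit and glmQLFTest on counts after filterByExpr, in 6 cell means with 4 residual degrees of freedom, adjusted by Benjamini-Hochberg; the SE is the absolute log2 difference divided by the square root of F. The same-strain libraries deviated together (correlations of 0.477 for STY, 0.419 for HA and 0.706 for 10M), so strain, from the labels, pairs them, and a fit with strain as a block has 2 residual degrees of freedom. DESeq2 1.42.0 was an alternative. The contrast with WT and its alternatives were added after the data were seen. The fit and the intervals were run on simulated counts as a check of the code. Those counts held no shared deviation of same-strain libraries, so they do not test the error of the real fit.

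The limit that a count of 0 allows (3 counts) is 0.12 to 0.337 CPM, depending on the library. The members and the 33 lists were chosen with earlier results of these data known, and the lists were given no test of their own. Of their entries 9 were not matched, and 26 of 595 genes are in more than 1 list. Genes were named by rule: the 15 highest and 15 lowest ratios among coding genes with a symbol, the 2 highest and 2 lowest apart in each list, a set of anchor genes, the 10 highest and 10 lowest differences past the threshold, and the 5 highest and 5 lowest noncoding genes. Other list members named beside their list's count, and the 5 genes that differed from WT, were chosen after their values were seen. Motifs in promoters were not searched and no sequence is given, as the build of the counts is not named.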

Additional observations from a re-analysis of the deposited data

Results flagged for a closer look

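Results are listed here because the H2O2 response of the 10D-labelled strain differed from that of another group in the edgeR test of the difference itself; the value after each name is the log2 difference, 10D minus the pool of STY, HA and 10M. None of these held when HA was left out of the pool, where 0 genes passed.

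Among peroxide, thiol and export genes the response was higher for caf5 (5.33), srx1 (4.57), trr1 (3.93), tpx1 (2.97), bfr1 (2.84), pmd1 (1.77), zwf1 (1.70) and sod1 (1.32). Among iron and heme uptake genes it was higher for shu1 (7.24), str3 (6.84), frp1 (5.10), fip1 (4.25), frp2 (3.79) and fio1 (3.14). Other genes with a higher response were SPAC750.01 (7.54), ecl1 (4.99), ppk8 (4.44), rib4 (4.08), SPNCRNA.1287 (3.04), Tf2-7 (2.97), lys4 (1.70), atg3 (1.69) and arg4 (1.38).

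Among chaperone genes the response was lower for hsp16 (-6.89), ssa1 (-5.89), hsp104 (-5.29), wis2 (-5.21), ssa2 (-4.06), hsp90 (-3.80) and hsp10 (-2.26). Among genes of respiration and its neighbours it was lower for sdh2 (-3.57), cyc1 (-2.55), sdh3 (-2.16), sdh1 (-1.83), rip1 (-1.60) and ccp1 (-1.33). In carbon and sulfur metabolism it was lower for pgk1 (-3.34), tps1 (-2.83), sir1 (-1.73) and adh1 (-1.55). Other genes with a lower response were SPNCRNA.911 (-8.17), SPAC11D3.01c (-4.03), prl65 (-2.96), SPAC32A11.02c (-2.15), hsp3101 (-1.85) and SPBC12C2.04 (-1.78). Of these SPNCRNA.911 was below the minimum level, with 3 counts in treated 10D.

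The response of 5 genes was also lower than that of WT, by log2 differences of -5.20 for SPAC11D3.01c, -5.18 for prl65, -4.61 for hsp3101, -3.83 for SPAC32A11.02c and -2.54 for SPBC12C2.04. All 5 also differed from the pool, and the contrast with WT was added after the data were seen.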

How the results depend on the processing

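The count of 727 genes apart was 445 (227 higher, 218 lower) with a minimum of 50 CPM, and 561 were higher with a minimum of 1 CPM, as the number of genes changes with it; the other scalings, prior count, thinning and gene types kept these counts of genes apart within 1.5 times. Of the single log2 ratios and list medians, 30 moved beyond their intervals with total counts and 22 with DESeq2 size factors (by at most 0.041 and 0.032), 6 with TMM of the 10D libraries alone (0.018), 25 with noncoding genes left out (0.038), 17 with thinning (1.19, for mfm1) and 1 with a minimum of 1 CPM (0.34, the Tf2 median), and none of these moved values changed sign. Against the pool, 301 calls (182 higher, 119 lower) became 744 (420 and 324) with DESeq2 and 853 (470 and 383) with strain as a replicate block. Without STY 3 (2 and 1) were left, without HA 0 (0 and 0) and without 10M 485 (291 and 194), and with WT added to the pool 0 (0 and 0; 280 at an unadjusted p under 0.05). Against WT, 5 calls became 107 with strain as a replicate block, 0 without STY, 1 without HA and 30 without 10M, and of the 5 genes 0, 0 and 4 were among them; all 5 were with the block. Differences of single genes that changed sign were past the threshold in neither fit. With WT added to the pool they were ctt1 (1.11 to -2.69), cta3 (1.85 to -2.80), pcr1 (1.17 to -0.73), atf1 (0.35 to -0.12), adg2 (-0.21 to 0.0021) and mik1 (-0.16 to 0.055). Leaving out STY, HA or 10M in turn gave ranges on both sides of 0 for mik1 (-0.36 to 0.078), adg2 (-0.44 to 0.088), isp5 (-1.23 to 0.11) and slp1 (-0.18 to 0.55). Against WT the ranges were -0.024 to 0.024 for gar2 and -0.029 to 0.020 for SPNCRNA.1353, and gar2 went from -0.023 to 0.00060 with DESeq2 size factors in edgeR. All 301 calls were among those of DESeq2 and of the block. Apart from the changed error and degrees of freedom, the causes were not tested. The planned search for promoter motifs was not run. No strain has a second library, so the spread between repeat cultures is unknown, and each p-value rests on the spread between different strains.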
